A study of Mus musculus with 6 samples.

Results

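The 10 genes described here carry the nuclear branch of Wnt signaling: Ctnnb1, the gene of β-catenin, and Apc, a scaffold of the complex that degrades it; the TCF/LEF transcription factor genes Tcf7, Tcf7l1, Tcf7l2 and Lef1; and Axin2, Nkd1, Sp5 and Tnfrsf19, known target genes of the pathway. The genes were chosen with earlier results of these data known, and the study had reported Lef1 as higher from these arrays and by quantitative RT-PCR. Counts of the 10 genes beside all genes are therefore a description and no test of the list. Their probes were taken by name, as all to which the array design gives one of these symbols, without use of measured values. This gave 18 of the 55681 probes on the array, on 20 spots. For 16 of them the scanner software marked the signal as well above background on each of the 3 arrays of LSC GFP+ cells, of LSC GFP- cells or of both, and these were tested, whereas 1 probe each of Lef1 and Tcf7l2 was not. Each of the 10 genes kept at least 1 tested probe.

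RNA came from prostates of 6-day-old male FVB/N mice carrying the Tg 11.5kb-GFP transgene, in which GFP is driven by the promoter of s-SHIP, a form of the inositol phosphatase SHIP1. LSC cells, which lack lineage markers and carry Sca-1 and CD49f, were sorted into LSC GFP+ and LSC GFP- cells, with 3 independent samples of each, so the transgene is present in both populations and GFP fluorescence is the only difference in the gate. The same promoter is also active in vascular smooth muscle cells of these mice, on which the study found little or no Sca-1 and CD49f. How many animals went into a sample is not given in the sources used here. The RNA was amplified, labeled with Cy3 and hybridised to 6 single-colour arrays on 1 slide.

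Without a Wnt ligand, β-catenin is phosphorylated in a complex built on Axin and APC proteins and is then degraded. When a ligand binds its receptors, this complex is blocked, β-catenin accumulates, enters the nucleus and acts as a co-activator on TCF/LEF proteins, which otherwise repress the same genes together with Groucho/TLE proteins. Several of the genes switched on in this way, Axin2 and Nkd1 among them, code for inhibitors of the pathway and so form a negative feedback. In the developing prostate, Wnt signals act in the epithelial buds and in the surrounding mesenchyme, and β-catenin protein, which is regulated mainly by its degradation, is not seen by an array.

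All levels are given as the log2 signal of a probe minus the 75th percentile of its array, so that a level of 0 equals this percentile, and differences are LSC GFP+ minus LSC GFP- on the same scale. Levels of different probes are not comparable with each other. Between 36651 and 42123 probes were well above background on an array, no spot was saturated, and the correlation of levels between arrays, taken across probes, was 0.961 to 0.985. The basal markers Krt5, Krt14 and Trp63 were well above background on all 6 arrays. In sorted bulk samples, fewer cells of a type and less RNA per cell cannot be told apart.

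Of the 10 genes, Lef1, Tcf7, Sp5 and Tnfrsf19 exceeded their LSC GFP- level in LSC GFP+ cells, with an unadjusted p under 0.05 in limma at the brightest tested probe of each, by 1.61-fold to 2.99-fold. The other 6, Ctnnb1, Apc, Tcf7l1, Tcf7l2, Axin2 and Nkd1, did not pass, and none was lower. Over all 25545 genes tested in this way, 3.39% were higher and 4.29% were lower. Counted over probes, 6 of the 16 tested were higher and 0 lower, beside 3.38% higher and 4.53% lower among all 37005 tested probes. That background split, 1250 probes higher and 1675 lower, became 1471 and 1299 when arrays were scaled by their median instead. After Benjamini-Hochberg adjustment over all tested probes no probe of the 10 genes passed in limma, with adjusted p values from 0.138 to 0.996, and 0.0027% of all tested probes did. In the same comparison 6 of 10 basal markers were higher and 6 of 6 smooth muscle markers lower, and their part in these differences was not tested.

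The log2 difference was above 0 for 14 of the 16 tested probes, beside 49.4% of all tested probes. Among these, both probes of Apc, that of Tcf7l1 and A_55_P2118694 of Nkd1 were near 0, at 0.02 to 0.10. Each of them turned below 0 in at least 1 other setting. The median log2 difference over the 10 genes was 0.26, beside -0.0068 over all genes tested. In 7 of the 16 probes the LSC GFP+ arrays lay entirely above the LSC GFP- arrays, which held for 6.61% of all tested probes, and in 0 they lay entirely below, which held for 5.65%. These were the probes of Lef1, Sp5 and Ctnnb1 and both probes each of Tcf7 and Tnfrsf19.

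**Figure D1:**
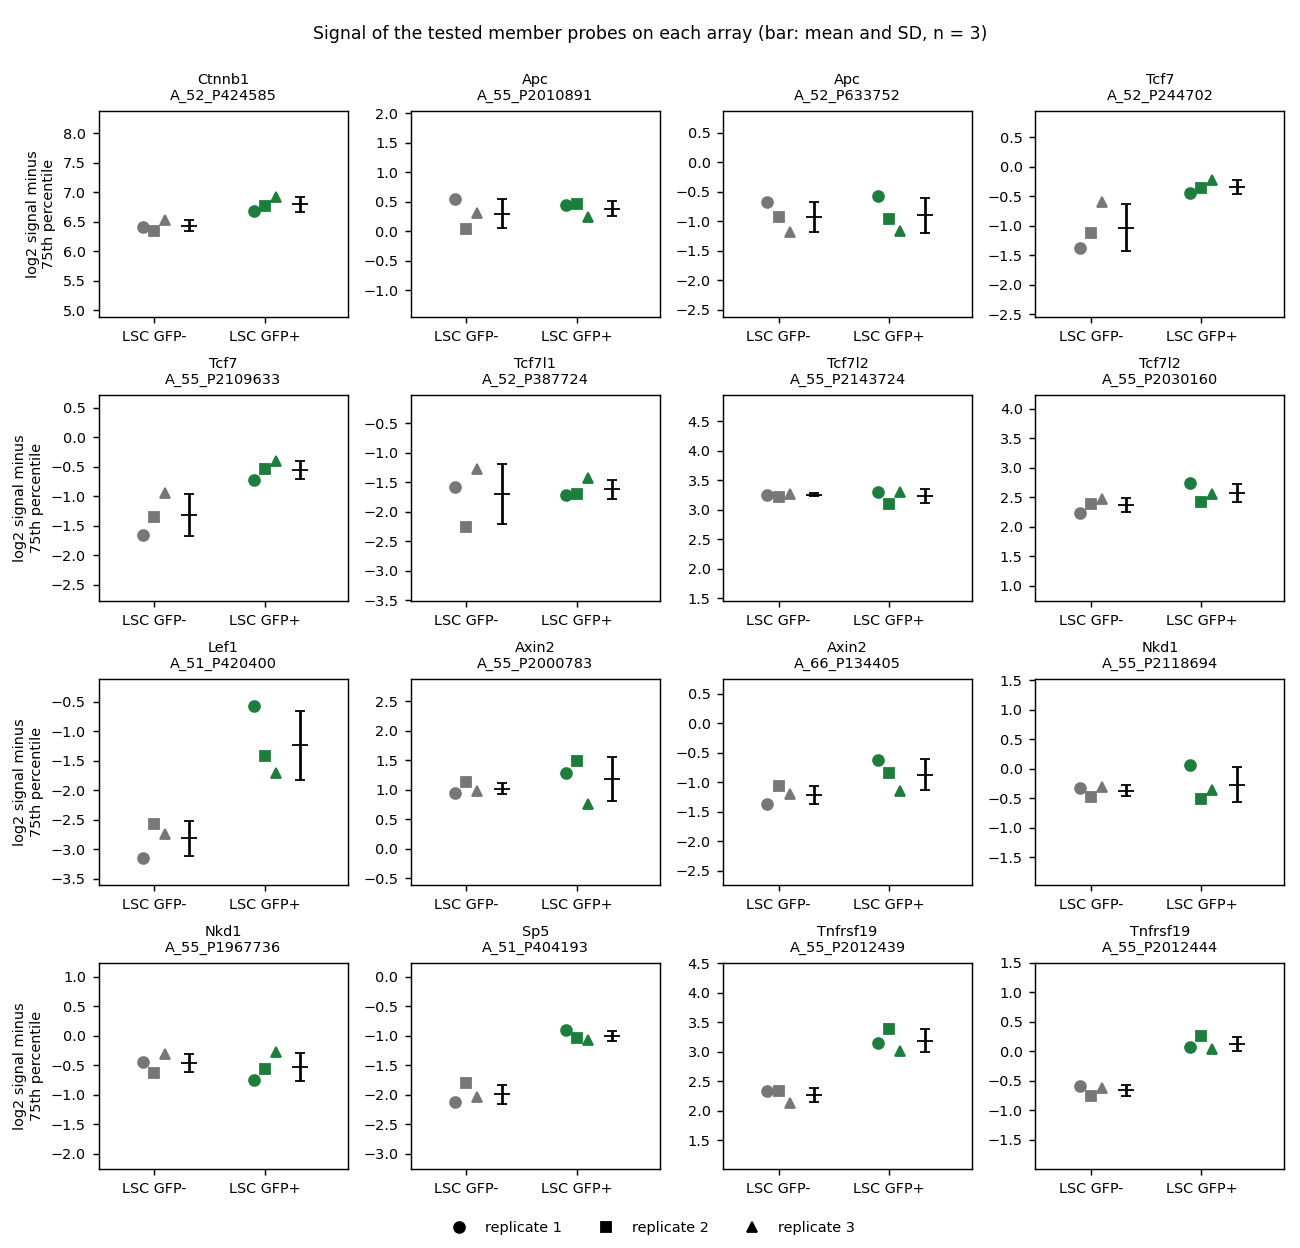
Level of each of the 16 tested probes on the 6 arrays, as log2 signal minus the array's 75th percentile (vertical axis, of the same length in log2 units in each panel), in LSC GFP- (grey) and LSC GFP+ cells (green), with mean and SD (n = 3) as bars and the marker shape giving the replicate number. The populations are apart in 7 panels, those of Ctnnb1, Tcf7, Lef1, Sp5 and Tnfrsf19, and overlap in the other 9.

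β-Catenin, the co-activator itself, was measured by 1 probe (A_52_P424585, chromosome 9 from 120869274 to 120869333, plus strand; all probe positions are those of mm9 given by the array design). Its levels were 6.68, 6.77 and 6.92 in LSC GFP+ replicates 1 to 3, and 6.42, 6.34 and 6.53 in LSC GFP- replicates 1 to 3. The populations did not overlap, but lay close together. The difference of 0.36 ± 0.18 (SE), 1.29-fold, had a 95% interval from -0.06 to 0.79 and did not pass, at an unadjusted p of 0.0847 in limma (adjusted p = 0.741). Within the replicate numbers, which were read as pairing the samples, the differences were 0.27, 0.43 and 0.40. A limma fit with these numbers as a block gave an unadjusted p of 0.0394 (adjusted p = 0.307). Ctnnb1 also passed at the unadjusted threshold without pairing under normexp background correction and by the methods' t-test, so its call depends on the processing and the test. The block made 7 of the 16 probes higher in place of 6, beside 6.74% of all tested probes, and 5480 of all tested probes passed with it in either direction, 0 of them after adjustment.

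The signal of Ctnnb1 was strong without being saturated. On the linear scale of the deposited signals its spots read 40111 to 55356 in LSC GFP+ cells and 32118 to 39679 in LSC GFP- cells. Ctnnb1 was printed on the array at 2 spots, which differed on any array by 0.036 to 0.082 on the log2 scale, less than the gap between the populations.

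Apc, which holds β-catenin for phosphorylation, was measured at either end of its transcript. At the probe near the 3′ end (A_55_P2010891, chromosome 18 from 34479639 to 34479698, plus strand), levels were 0.45, 0.47 and 0.24 in LSC GFP+ cells and 0.55, 0.05 and 0.32 in LSC GFP- cells. At the probe nearer the 5′ end (A_52_P633752, which spans 4076 bases of the genome and so crosses a splice junction), they were -0.57, -0.96 and -1.17 against -0.67, -0.92 and -1.18. The populations overlapped at both probes. The differences were 0.08 (95% interval -0.40 to 0.57) and 0.02 (95% interval -0.53 to 0.57).

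Of the TCF/LEF factors, Lef1 and Tcf7 passed the unadjusted threshold as higher in LSC GFP+ cells, and Tcf7l1 and Tcf7l2 did not pass. Lef1, a factor that mostly activates with β-catenin and is known from epithelial buds such as those of hair and mammary gland, had the largest difference of the 10 genes.

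The tested probe of Lef1 (A_51_P420400, chromosome 3 from 130907851 to 130926012, plus strand, spanning 18162 bases of the genome across a junction) is shown in full, as the only array probe on which the Lef1 difference given here rests.
Lef1 A_51_P420400: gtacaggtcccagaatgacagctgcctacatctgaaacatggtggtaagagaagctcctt

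Levels of Lef1 at this probe were -0.58, -1.42 and -1.70 in LSC GFP+ cells and -3.14, -2.57 and -2.73 in LSC GFP- cells. Replicate 1 stood at the far side in both populations, highest among the LSC GFP+ and lowest among the LSC GFP- arrays, and the populations were well apart. The difference was 1.58 ± 0.32 (SE), 2.99-fold (95% interval 0.84 to 2.32), at an unadjusted p of 0.00121 and an adjusted p of 0.151 in limma. Within the replicate numbers it was 2.56, 1.15 and 1.03. It passed under each of 16 other settings, at values from 0.92 to 1.81, the lowest with normexp background correction.

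Lef1 signals were low on the linear scale, at 267, 185 and 127 in LSC GFP+ cells and 45.5, 68.7 and 63.2 in LSC GFP- cells, yet well above background on all 6 arrays. The other Lef1 probe (A_55_P2076871, chromosome 3 from 130926200 to 130926259) lies further 3′. It was above the background limit on 1 of the 3 LSC GFP+ and 0 of the 3 LSC GFP- arrays, and its levels, -3.68, -6.21 and -5.20 against -4.72, -4.89 and -4.69, give no usable difference.

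Tcf7, which codes for TCF1 and is best known from T cells and stem cells, was higher at both of its probes. They lie on the minus strand of chromosome 11, the first from 52066114 to 52066173 (A_52_P244702) and the other from 52066738 to 52066797 (A_55_P2109633). The first 30 bases of each are shown to make clear that they read separate stretches of the message.
Tcf7 A_52_P244702: ttttttcattctcgctgtagatagcctgaa
Tcf7 A_55_P2109633: ccaatacttcttggaccaagaatacctggt

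At the brighter probe, A_52_P244702, Tcf7 levels were -0.45, -0.36 and -0.22 in LSC GFP+ cells and -1.38, -1.12 and -0.59 in LSC GFP- cells. At the other they were -0.72, -0.54 and -0.41 against -1.65, -1.36 and -0.94. The populations did not overlap at either probe, the LSC GFP- arrays were the more spread, and replicate 3 came closest to the LSC GFP+ arrays at both.

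The differences of Tcf7 were 0.69 ± 0.25 (SE), 1.61-fold, at an unadjusted p of 0.0236 (adjusted p = 0.480 in limma), and 0.76 ± 0.24 (SE), 1.69-fold, at an unadjusted p of 0.0125 (adjusted p = 0.375). The first lost its call when 1 of 4 arrays was left out: replicate 2 (difference 0.69) or 3 (0.62) of the LSC GFP+ cells, or replicate 1 (0.51) or 2 (0.64) of the LSC GFP- cells, with unadjusted p values from 0.0552 to 0.102. The other lost it without LSC GFP- replicate 1, at a difference of 0.59 and an unadjusted p of 0.0597. Within the replicate numbers all 3 differences were above 0 at both probes, from 0.37 to 0.93.

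Tcf7l1, which codes for TCF3 and acts mainly as a repressor in stem cells and in skin epithelium, was measured by 1 probe (A_52_P387724, chromosome 6 from 72576377 to 72576436, minus strand). Its levels were -1.71, -1.70 and -1.43 in LSC GFP+ cells and -1.57, -2.26 and -1.27 in LSC GFP- cells. The LSC GFP+ arrays lay within the range of the LSC GFP- arrays. The difference was 0.09 (95% interval -0.56 to 0.73).

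Tcf7l2, which codes for TCF4, the main partner of β-catenin in intestinal epithelium, had 2 tested probes on the plus strand of chromosome 19. At A_55_P2143724, from 55817272 to 55817331, its levels were 3.31, 3.09 and 3.30 in LSC GFP+ cells and 3.26, 3.22 and 3.27 in LSC GFP- cells. At A_55_P2030160, from 55994029 to 55994088, they were 2.74, 2.43 and 2.56 against 2.24, 2.40 and 2.47. The populations overlapped at both probes, and the first held the LSC GFP- arrays within an SD of 0.026, the smallest of any tested probe of the 10 genes. The differences were -0.02 (95% interval -0.44 to 0.40) and 0.21 (95% interval -0.24 to 0.65). The probe not tested, A_55_P2260094 from 56006638 to 56006697, was not above the background limit on any of the 6 arrays.

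Lef1 and Tcf7 were set beside Tcf7l1 and Tcf7l2 by differences of levels within each array. Each was the level of Lef1 or Tcf7 minus that of Tcf7l1 or Tcf7l2, at the brightest probe of each. The log2 difference of Lef1 was larger than that of Tcf7l1 by 1.49 and than that of Tcf7l2 by 1.60. For Tcf7 the values were 0.60 and 0.71. In none of these pairs of genes did the populations overlap. They came closest for Lef1 against Tcf7l1, where the lowest LSC GFP+ array stood at 0.84 and the highest LSC GFP- array at 0.80 above the LSC GFP- mean. Each had an exact two-sided permutation p of 0.1, the smallest that 3 arrays against 3 can give, and 0.1 after adjustment over 8 such pairs of genes, so the difference did not pass. The 8 pairs were chosen after the values of the genes were seen. Each set a gene whose populations were apart beside one whose populations overlapped, so the lack of overlap is no independent result.

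**Figure D2:**
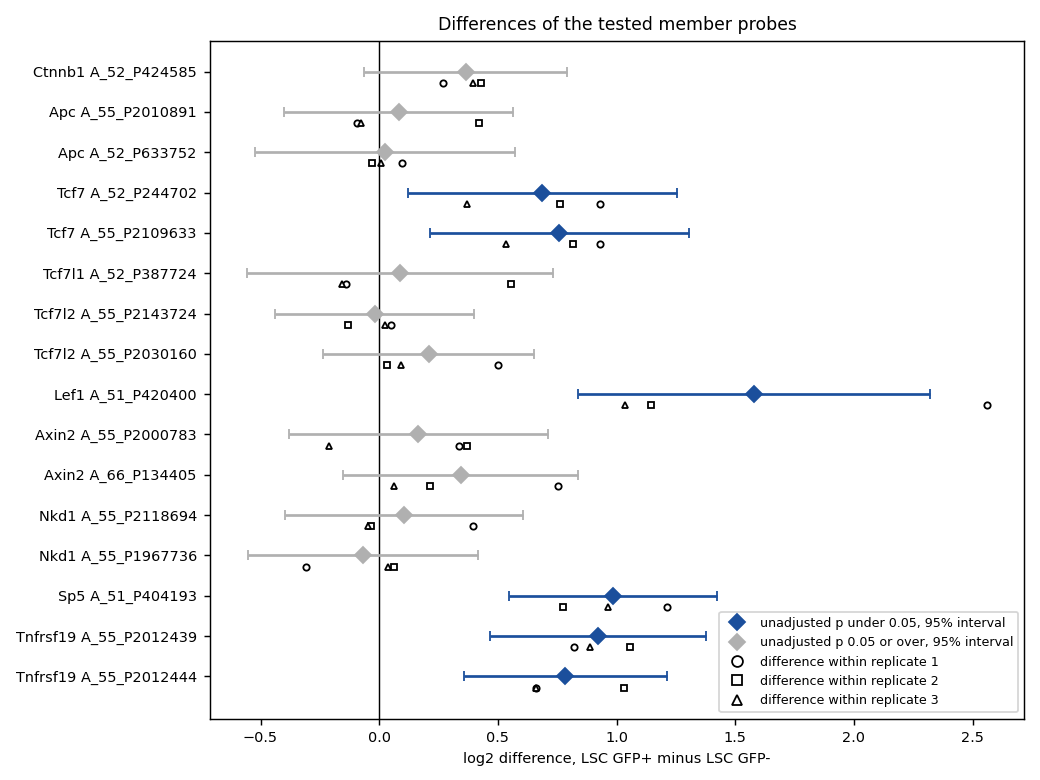
Log2 difference, LSC GFP+ minus LSC GFP- (horizontal axis), of each tested probe with its 95% interval (blue, unadjusted p under 0.05 in limma; grey, 0.05 or over) and the difference within each replicate number (open symbols). Lef1 stands farthest to the right at 1.58, with replicate 1 at 2.56, and the intervals of Ctnnb1, Apc, Tcf7l1, Tcf7l2, Axin2 and Nkd1 all include 0.

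Of the target genes, Sp5 and Tnfrsf19 passed the unadjusted threshold as higher, and Axin2 and Nkd1 did not pass. Sp5, a zinc finger factor of the Sp family that is switched on directly by β-catenin, had the smallest p of the 10 genes. Its probe (A_51_P404193, chromosome 2 from 70315688 to 70315747, plus strand) is also the only tested probe of its gene, and its first bases are shown.
Sp5 A_51_P404193: cagagctacagcatggtacgtttctgtaaa

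Levels of Sp5 were -0.91, -1.03 and -1.08 in LSC GFP+ cells and -2.12, -1.81 and -2.04 in LSC GFP- cells. Each population was tight, with an SD of 0.09 and 0.16 (n = 3 each), and the populations were far apart. The difference was 0.98 ± 0.19 (SE), 1.98-fold (95% interval 0.55 to 1.42), at an unadjusted p of 0.000882 and an adjusted p of 0.138 in limma. It was 1.21, 0.77 and 0.97 within the replicate numbers. Under 16 other settings it stayed between 0.72 and 1.08 and passed in each, at an unadjusted p of at most 0.00681.

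Tnfrsf19, also known as TROY, is a receptor of the TNF family that is a Wnt target and marks stem cells in some epithelia. Both of its probes lie on the minus strand of chromosome 14, A_55_P2012439 from 61582873 to 61582932 and A_55_P2012444 from 61589667 to 61589726. The first bases of the brighter one are given to identify it.
Tnfrsf19 A_55_P2012439: atggaatatattttgaatcgcaggattttc

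At this probe, levels of Tnfrsf19 were 3.16, 3.39 and 3.01 in LSC GFP+ cells and 2.34, 2.34 and 2.13 in LSC GFP- cells. At A_55_P2012444 they were 0.07, 0.27 and 0.04 against -0.59, -0.76 and -0.62. Replicate 2 was the highest LSC GFP+ array at both probes, and the populations did not overlap at either. The differences were 0.92 ± 0.20 (SE), 1.89-fold, at an adjusted p of 0.173 and 0.78 ± 0.18 (SE), 1.72-fold, at an adjusted p of 0.214 in limma, with unadjusted p values of 0.00167 and 0.00296. Both passed at the unadjusted threshold under each of 16 other settings.

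Axin2, a scaffold that replaces Axin1 in the degradation complex and is the most widely used read-out of the pathway, was measured on the plus strand of chromosome 11. At A_55_P2000783, from 108812034 to 108812093, levels were 1.29, 1.50 and 0.77 in LSC GFP+ cells and 0.95, 1.12 and 0.98 in LSC GFP- cells. At A_66_P134405, from 108803927 to 108803986, they were -0.62, -0.85 and -1.14 against -1.38, -1.07 and -1.21. LSC GFP+ replicate 3 fell below all LSC GFP- arrays at the first probe and among them at the other, whereas LSC GFP+ replicates 1 and 2 lay above all of them at both. The differences were 0.16 (95% interval -0.38 to 0.71) and 0.34 (95% interval -0.15 to 0.84), at unadjusted p values of 0.504 and 0.148. Both intervals include 0 and overlap the interval of Sp5.

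Nkd1, which binds Dishevelled and dampens Wnt signals, was measured on chromosome 8, at A_55_P2118694 from 91118468 to 91118527 and at A_55_P1967736 from 91116160 to 91116219. Levels were 0.07, -0.51 and -0.36 in LSC GFP+ cells and -0.33, -0.48 and -0.31 in LSC GFP- cells at the first. At the other they were -0.75, -0.57 and -0.28 against -0.44, -0.63 and -0.31. The populations overlapped at both, and the probes disagreed in direction. The differences were 0.10 (95% interval -0.40 to 0.60) and -0.07 (95% interval -0.55 to 0.42).

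Sp5 and Tnfrsf19 were set beside Axin2 and Nkd1 in the same way as the factors, again chosen after their values were seen. The log2 difference of Sp5 was larger than that of Axin2 by 0.82 and than that of Nkd1 by 0.88, and for Tnfrsf19 the values were 0.76 and 0.82. The populations did not overlap in any of the 4 comparisons, which again set genes with separate populations beside genes with overlapping ones. Each again had an exact two-sided permutation p of 0.1, the smallest possible here, so this test cannot decide about the difference between the target genes either.

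The promoters of the genes were searched for CTTTGA, the core of the DNA motif bound by TCF/LEF proteins, on either strand in the 250 bases before each RefSeq start (GRCm38.p6). No other motif was searched. It was found in 13.8% of all 32851 such windows, and in 1.37% at least 2 times. Of the 10 genes, all but Apc had an entry, with 16 windows in all, and 3 windows (18.8%) of 3 genes, Sp5, Lef1 and Tnfrsf19, held a match. Over all 27025 genes in the table, 15.8% had a match in any of their windows. Genes with more starts have more windows, and Lef1, Tcf7, Sp5 and Tnfrsf19 hold 9 of the 16, so nothing is read from the count. The 3 windows are shown with the match in capitals (TCAAAG where it lies on the opposite strand), 5′ to 3′ along the gene, as all windows of the 10 genes in which these letters occur.
Sp5, chr2:70474673-70474922, plus strand: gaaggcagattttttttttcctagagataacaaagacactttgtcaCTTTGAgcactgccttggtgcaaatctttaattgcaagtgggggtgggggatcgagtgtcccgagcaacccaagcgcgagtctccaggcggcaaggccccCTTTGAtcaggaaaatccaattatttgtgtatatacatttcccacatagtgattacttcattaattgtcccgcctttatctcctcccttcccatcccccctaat
Lef1, chr3:131156044-131156293, plus strand: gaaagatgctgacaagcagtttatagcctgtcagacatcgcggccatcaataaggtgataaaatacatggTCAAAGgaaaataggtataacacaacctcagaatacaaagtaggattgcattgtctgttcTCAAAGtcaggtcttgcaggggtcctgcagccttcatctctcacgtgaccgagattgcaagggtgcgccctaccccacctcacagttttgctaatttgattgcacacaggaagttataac
Tnfrsf19, chr14:61037988-61038237, minus strand: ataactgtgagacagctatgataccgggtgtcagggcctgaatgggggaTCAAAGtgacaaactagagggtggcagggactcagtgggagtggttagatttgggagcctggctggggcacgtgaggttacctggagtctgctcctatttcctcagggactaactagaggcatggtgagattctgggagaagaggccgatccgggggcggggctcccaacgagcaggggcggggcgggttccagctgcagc

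In Sp5 the matches began 204 and 104 bases before its only start in the table. In Lef1 they began 180 and 120 bases before the last of its 4 starts, which lies inside the gene, and the windows of its other starts held none. In Tnfrsf19 the match began 201 bases before the inner of its 2 starts. The windows of Tcf7, Ctnnb1, Tcf7l1, Tcf7l2, Axin2 and Nkd1 held no match. A match of these letters is a description of the sequence only, and which start these cells used was not measured.

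The 10 genes were set beside 71 other genes of the same branch, in 3 lists, at the brightest tested probe of each. Of the 65 that could be tested, 13 were higher and 2 lower at the unadjusted threshold, and 50 did not pass, beside 3.39% higher and 4.29% lower over all genes. The 13 became 7 without LSC GFP- replicate 1 and 8 without LSC GFP+ replicate 2, and the 2 became 1 without either of these or without LSC GFP- replicate 3. With the replicate block 17 were higher and 3 lower, beside 6.52% higher and 7.72% lower over all genes. The median log2 difference over the 65 was 0.15, and 0 of them passed after adjustment in limma.

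The degradation complex and Dishevelled proteins, the machinery that sets the amount of β-catenin, gave no call without the block. All 15 genes were tested, with 0 higher and 0 lower, and a median difference of 0.17. The difference was above 0 for 13 of them. With the replicate block 1 of the 15 was higher, Btrc, an adaptor of the ubiquitin ligase that marks β-catenin, at a difference of 0.41 and an unadjusted p of 0.049996, just under the threshold. Btrc was named after its value was seen.

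Among 23 nuclear partners of β-catenin and TCF/LEF, 1 was higher, 1 lower and 21 did not pass, with a median of 0.06. Tle2, a Groucho family co-repressor that binds TCF/LEF proteins, had levels of -1.51, -0.29 and -2.54 in LSC GFP+ cells and 0.47, 0.88 and 0.11 in LSC GFP- cells. All LSC GFP+ arrays were below the LSC GFP- arrays, though widely spread. The difference was -1.93 ± 0.52 (SE), at an unadjusted p of 0.00603 (adjusted p = 0.288). Tbl1xr1, part of an exchange complex for co-repressors, was higher by 0.57 at an unadjusted p of 0.0389.

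Among 33 other target genes, 27 were tested, of which 12 were higher, 1 lower and 14 did not pass, with a median of 0.47. In order of p, the first 5 were Wif1, which codes for a secreted Wnt inhibitor, with a difference of 1.97, Myc with 0.92, Sp8, a close relative of Sp5, with 0.95, Ccnd1, the gene of cyclin D1, with 0.78 and Lgr5, a receptor for R-spondins, with 0.94. Their adjusted p values in limma lay between 0.0899 and 0.273. Among the 12 higher genes was a dim one, well above background on 3 LSC GFP+ but only 2 LSC GFP- arrays. It entered the test only through the population in which it was higher. With only probes well above background on all 6 arrays, the count over the 3 lists was 12 higher in place of 13. The study had already named Wif1, Myc and Lgr5 among genes that differed on these arrays, so the count of this list is a description. Wisp1, a secreted matrix protein, was lower by a difference of -0.92, with overlapping populations, at an unadjusted p of 0.0332 in limma. With the replicate block it did not pass, at an unadjusted p of 0.0530. The block gave 14 of the 27 higher and 2 others lower, beside 6.52% higher and 7.72% lower over all genes. Many of these target genes are also controlled by other pathways.

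The cell type markers differed between the populations as follows. Of 10 basal markers, 6 were higher and 0 lower, with a median difference of 0.61, among them Krt17 by 1.40 and Krt14 by 1.18. Their summed signal, in multiples of the 75th percentile of the array, was 232 to 250 on the LSC GFP+ arrays and 174 to 184 on the LSC GFP- arrays.

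All 6 smooth muscle markers were lower in LSC GFP+ cells, with a median of -1.73 and sums of 6.21 to 10.0 against 19.6 to 37.7. Of 7 stromal markers 5 were lower and 1, Dcn, was higher, with a median of -1.97 and sums of 18.6 to 24.9 against 20.9 to 58.9. Dcn had the highest mean level of the 7 in LSC GFP+ cells, 3.70, and so weighs most in the LSC GFP+ sums. Pdgfra, among the 5 lower, was well above background on only 2 LSC GFP+ arrays and entered the test through the LSC GFP- arrays. No marker of smooth muscle fell below the background limit on any array. Of the endothelial, leukocyte and glial or neuronal markers, 3 of 5, 5 of 6 and 4 of 6 were tested, and 0 passed in either direction without the block. With the replicate block 2 of the 4 glial or neuronal markers were lower and 0 higher. They were Tubb3 (difference -1.30, unadjusted p = 0.00116 in limma) and Sox10 (-0.66, unadjusted p = 0.0257). No endothelial or leukocyte marker passed with it.

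**Figure D3:**
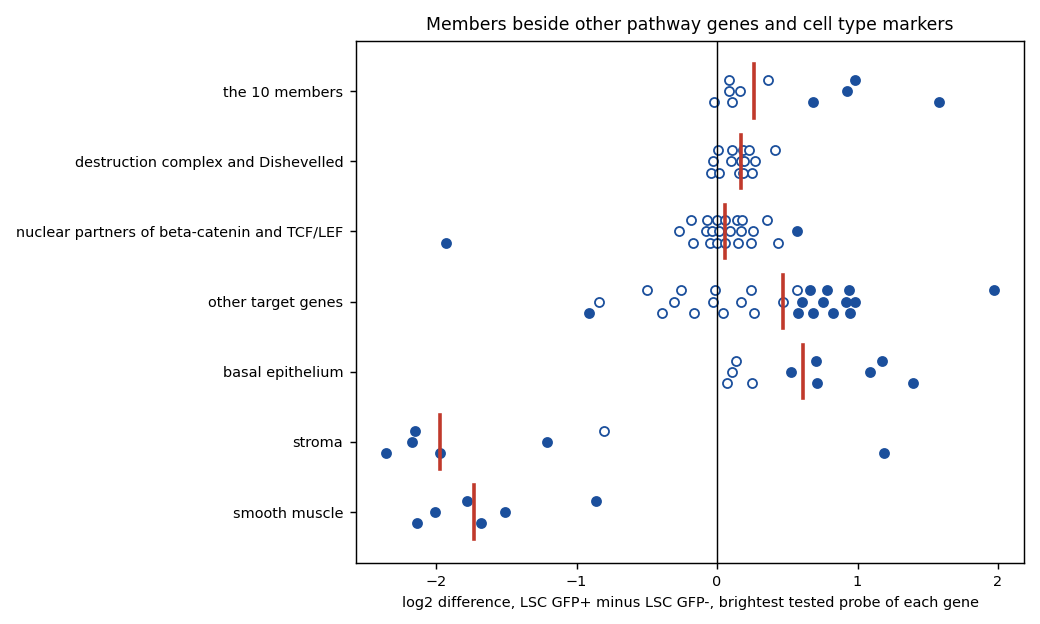
Log2 difference, LSC GFP+ minus LSC GFP- (horizontal axis), at the brightest tested probe of each gene, for the 10 genes, 3 lists of other pathway genes and 3 lists of cell type markers (vertical axis); filled circles passed an unadjusted p of 0.05 in limma and red bars are medians. The 10 genes have a median of 0.26 and the other target genes 0.47, while smooth muscle and stromal markers lie mostly below -1.

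**Figure D4:**
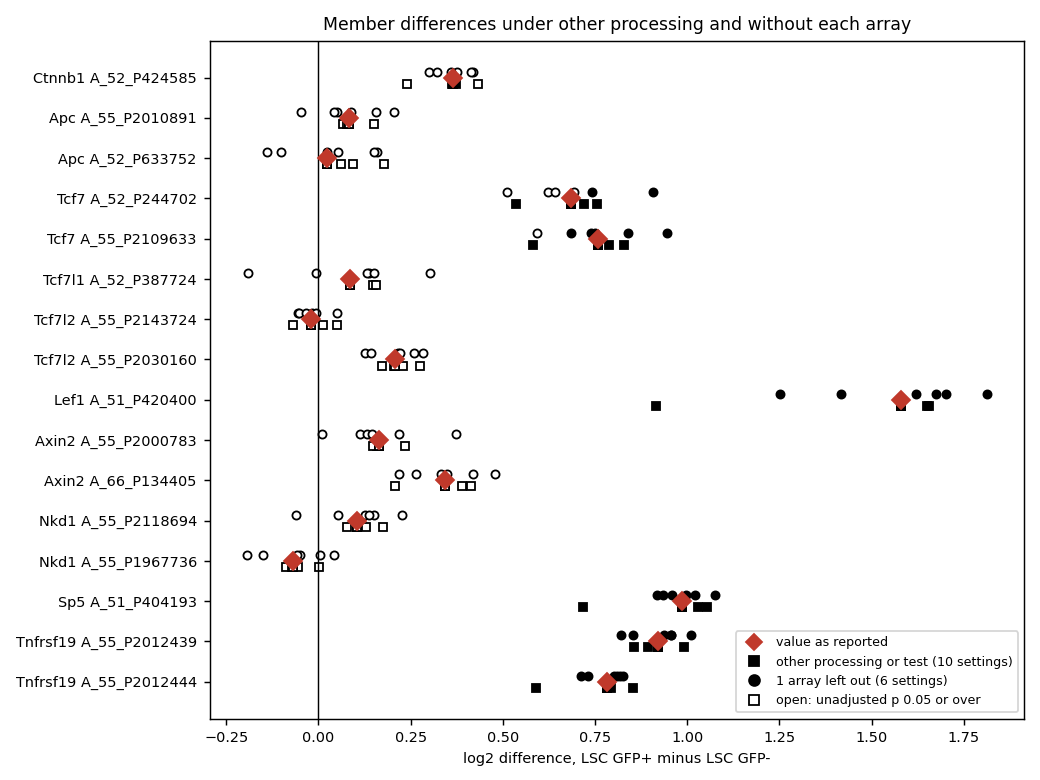
Log2 difference, LSC GFP+ minus LSC GFP- (horizontal axis), of each tested probe as reported (red), under 10 other settings of the processing or the test (squares) and with each of the 6 arrays left out (circles); open symbols had an unadjusted p of 0.05 or over. The symbols of Sp5, Lef1 and Tnfrsf19 are all filled and right of 0, those of Tcf7 are partly open, and those of Apc, Tcf7l1, Nkd1 and the Tcf7l2 probe A_55_P2143724 lie on either side of 0.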

How the data were processed

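Expression was measured in 3 samples each of the LSC GFP+ and LSC GFP- populations on single-colour Agilent arrays. The values deposited by the authors are intensity signals on a linear scale. Per the file headers and the study's methods they come from Feature Extraction 11.0.1.1 (the submitters' processing notes name 10.7.3.1), with background subtracted, a spatial trend removed, a substitute value for dim spots and no normalization between arrays. A table of the whole series holds the same signals rounded.

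Outlier spots (123 to 154 per array, none of the 10 genes) were left out, the log2 of each signal was taken, the 75th percentile of the array was subtracted, and replicate spots of a probe averaged. A probe entered the test if it was well above background on all arrays of either population. The test was that of limma 3.58.1 (lmFit, eBayes; R 4.3.3), two-sided, with Benjamini-Hochberg adjustment over all 37005 tested probes. The procedure was also run on simulated data with independent noise on each array, which does not cover the correlation between same-numbered samples. The study calls the samples independent without saying how animals were divided among them. Unless the replicate block is named, limma p values come from the unpaired fit. They set a difference against the spread between these samples within each population, not against the spread of the paired differences. The 3 arrays per population limit the precision: an exact permutation test cannot go below 0.1.

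The 10 genes, the lists of pathway genes and markers, and the tests were chosen with earlier results of these data known. All probes of the 10 genes are given. Other pathway genes were named at an unadjusted p under 0.05, at most 5 per list and direction in order of p, and markers were named after their values were seen. A further list of markers is not reported here. Probe names were checked through RefSeq accessions in a table of GRCm38.p6, which matched 17 of the 18 probes and gave no other symbol. Probe positions are those of mm9. The exon or untranslated region of a probe was not determined here.

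The replicate numbers in the sample titles were checked for pairing: the deviations of same-numbered samples from their population means were correlated across probes. The correlation was 0.43, 0.28 and 0.67 for numbers 1, 2 and 3, which was read as pairing, since each exceeds 0.1. No value from samples of different numbers was set beside these, so the pairing is a reading and was not tested. The titles do not say what samples of the same number share.

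Alternatives, tried singly, were the rounded table, normexp (offset 50), scaling by the median or by quantiles, 3 other filters for dim probes, the replicate block, the methods' t-test run on these values, limma with an intensity trend, averaging a gene's probes, and each array left out.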

Additional observations from a re-analysis of the deposited data

How the results depend on the processing

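Over the 16 tested probes and 16 other settings, 236 of 256 differences kept their direction and their side of the unadjusted threshold, 5 (all Tcf7) no longer passed, 3 (all Ctnnb1) newly passed and 12 turned in sign. All 12 were values near 0, and the cause was not tested. Tcf7l2 at A_55_P2143724 became 0.012 with normexp, 0.050 with scaling by the median and 0.052 without LSC GFP+ replicate 2, and ran from -0.057 to 0.052 over the arrays left out. Nkd1 at A_55_P1967736 became 0.000795 with scaling by the median, 0.041 without LSC GFP+ replicate 1 and 0.0053 without LSC GFP- replicate 3 (range -0.19 to 0.041), and at A_55_P2118694 -0.062 without LSC GFP+ replicate 1 (range -0.062 to 0.23). Apc at A_52_P633752 became -0.14 without LSC GFP+ replicate 1 and -0.10 without LSC GFP- replicate 3 (range -0.14 to 0.16), and at A_55_P2010891 -0.046 without LSC GFP- replicate 2 (range -0.046 to 0.20). Tcf7l1 became -0.0063 without LSC GFP+ replicate 3 and -0.19 without LSC GFP- replicate 2 (range -0.19 to 0.30).

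The count of the 10 genes higher in LSC GFP+ cells was 4, and 3 to 5 over the settings, with 0 lower in each. The count of higher probes was 6, and 4 to 7. With no filter on dim probes 1 probe was lower in place of 0, Tcf7l2 A_55_P2260094, which stayed under the background limit on all 6 arrays. Leaving out 1 array gave 7 to 13 higher and 1 to 3 lower among the other pathway genes, against 13 and 2. The 7 was without LSC GFP- replicate 1, and without LSC GFP+ replicate 2 it was 8. The lower count was also 1 with scaling by the median and with the methods' t-test. With the replicate block 5 of the 10 genes were higher, Ctnnb1 being added, and 17 of the other pathway genes were higher and 3 lower. The block changed no other call of the 10 genes; among the degradation complex it added Btrc. The median difference over the 10 genes lay between 0.19 and 0.36. Letting the probe of smallest p stand for its gene, an alternative chosen after seeing the data, gave 4 higher and 0 lower. No probe of the 10 genes passed after adjustment in any setting, with a smallest adjusted p of 0.0832 under the block.

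The medians over all tested probes moved by less than 0.1 between settings.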
